A study of Xenopus laevis with 3 samples.

Results

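Solute carriers (SLC) are the large class of membrane proteins that move sugars, amino acids, ions, metals, vitamins and metabolites across the cell surface and the membranes of organelles. The SLC probe sets of the array were those with a single platform gene symbol that starts with slc and a family number, counted over the .L and .S homeologs of the *Xenopus laevis* genome. The rule uses names alone and no measured value. It gave 265 of the 32539 non-control probe sets, or 265 of the 15495 probe sets with a single symbol. They stand for 213 gene symbols, or 176 genes when the .L and .S copies are joined, in 46 SLC families.

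The arrays held RNA of stage 11 *Xenopus laevis* gastrulae, with 1 array of 50 pooled whole embryos for each of 3 conditions. The control embryos had received water. The GlyR+IVM embryos, labelled GlycineR, had received mRNA of a glycine-gated chloride channel. The paper states that they were kept in ivermectin, a drug that opens this channel, and names no drug for the other embryos. The mRNA and the drug therefore cannot be told apart in this array. The DN-KATP embryos, labelled 666 chimera, had received mRNA of a dominant-negative subunit of the ATP-sensitive potassium channel. The study used both as means to depolarize the embryo, that is, to move the resting potential of its cells towards zero, and asked which transcripts follow. The injected channels were not limited to a tissue, the methods and the labels name different early stages for the injection, and a pool of whole embryos gives no value for a single embryo or germ layer. No strain, sex or age beyond the stage is given in the labels.

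Carriers differ in how they are driven. Facilitative carriers let a solute run down its own gradient. Secondary active carriers couple it to sodium, protons, potassium or chloride, so that membrane voltage is part of the driving force for those that move net charge. Other families sit in the inner mitochondrial membrane, the Golgi or synaptic vesicles, where they exchange metabolites, nucleotide sugars or transmitters. The frog gastrula feeds on yolk laid down in the egg, so its carriers serve traffic within and between its own cells and the fluid around them rather than uptake of food.

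Signals are MAS5 intensities on a linear scale, and a ratio is the log2 of a depolarized array's signal over the control's. With 1 array a condition there is no replicate, hence no test, error or p-value, and each fold describes these arrays alone. The signal of a probe set depends on its probes, so levels are compared between arrays and never between genes. A probe set was called higher or lower where it differed at least 2-fold from control and the higher signal was at least 40. Since the embryos were pooled whole, fewer cells of a type and less RNA per cell cannot be told apart. Both comparisons use the same control array, so the control signal enters both ratios of a probe set. Where 3 signals of a probe set follow each other below, they are those of control, GlyR+IVM and DN-KATP, in this order.

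Most SLC probe sets gave a signal in the gastrula. At least 40 was reached in all 3 arrays by 183 of the 265, or 69.1%, beside 68.9% of all single-symbol probe sets. Another 56 stayed under 40 in all arrays, and 26 lay on both sides of 40. In 198 the mean signal over the arrays was at least 40, and the group descriptions below rest on these. The median log2 ratio of the GlyR+IVM array was -0.03 and that of the DN-KATP array 0.00168, and over all single-symbol probe sets it was -0.01 in both. Signals within 1.5-fold of control were found for 83.8% of them with GlyR+IVM and 76.8% with DN-KATP, beside 84.0% and 81.9% of single-symbol probe sets. The standard deviation of the log2 ratios across probe sets was 0.46 and 0.52. Among the 67 members with a mean under 40 it was 1.45 and 1.65, and among the 85 with a mean of at least 400 it was 0.41 in both.

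Calls were few. In GlyR+IVM 4 SLC probe sets were higher (1.51%) and 5 lower (1.89%). Of all probe sets 3.41% were called higher and 2.02% lower there, and of single-symbol probe sets 2.85% and 1.99%. In DN-KATP 4 were higher (1.51%) and 9 lower (3.40%), where all probe sets gave 3.88% and 1.83% and single-symbol ones 3.08% and 1.85%. The share of members called lower in DN-KATP stood above both backgrounds, the share called lower in GlyR+IVM stood close to them, and the shares called higher stood below them. In both arrays together 1 member was higher (0.377%) and 2 were lower (0.755%), beside 1.25% and 0.470% of all probe sets and 0.987% and 0.439% of single-symbol ones. A call in either array was made for 19 members, or 7.17%, and none for 246. The split of the calls moved with the scaling between arrays. Higher calls made up 44.4% of the GlyR+IVM calls and 30.8% of the DN-KATP calls with the signals as deposited, 33.3% and 0% after quantile normalization, and 0% in both when the arrays were scaled to the hybridization spike-ins, which lowers every ratio by 0.45 and 0.55. Quantile normalization ended the higher calls of slc9a3r2.S, slc25a4.L, slc25a46.L and slc40a1.S in DN-KATP and of slc26a4l.L in GlyR+IVM, and the spike-in scaling ended all 8 higher calls. With a floor of 100 both calls of each of slc25a4.L, slc5a5.L and slc35a3.1.L were lost, among 12 lost calls in all, and with 32 added to every signal both calls of slc25a4.L were lost.

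**Figure D1:**
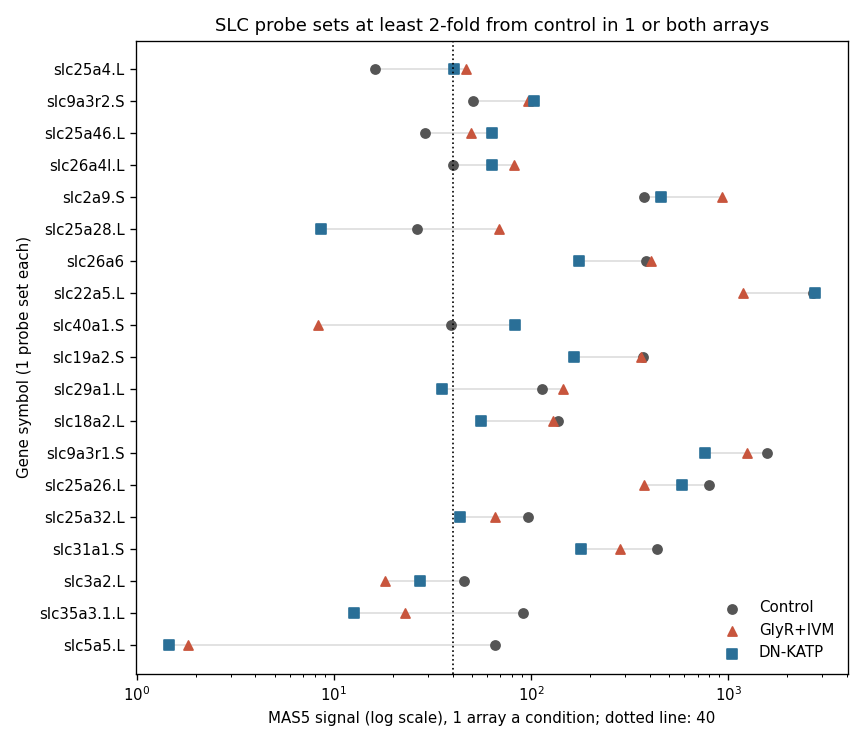
Signals (log axis, MAS5 intensity) of the 19 SLC probe sets called in either comparison, 1 row per probe set, with a point for each of the 3 arrays and a dotted line at 40. There are no replicates and so no error bars. Only 4 of the 19 have a mean signal of at least 400, and the probe set with the widest gap, slc5a5.L, drops from 65.6 to under 2 in both depolarized arrays.

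Of the 19 called members 9 had another probe set of the same gene or its homeolog with a mean signal of at least 40, and in 0 of these 9 was that other probe set called the same way. For the remaining 10 no second measurement of this kind was at hand. One called probe set, that of slc22a5.L, is of a kind that can cross-hybridize.

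The 3 members called in both arrays belong to different compartments. slc25a4.L encodes the ADP/ATP translocase of the inner mitochondrial membrane that prevails in heart and skeletal muscle. Its signals were 16.2, 47.0 and 40.6, 2.90 times the control's with GlyR+IVM and 2.51 times with DN-KATP. Both depolarized signals lay just above 40 and the control well under it. slc5a5.L encodes the sodium-iodide symporter, known from the thyroid, an organ that the gastrula does not yet have. Its signals were 65.6, 1.82 and 1.45, and only the control array exceeded 40. slc35a3.1.L encodes a Golgi carrier of UDP-N-acetylglucosamine. Its signals were 90.8, 22.9 and 12.7, which is 3.96-fold lower with GlyR+IVM and 7.16-fold with DN-KATP. In all 3 cases the signals on the low side were under 40. The mean over the arrays was 34.6 for slc25a4.L, 22.95 for slc5a5.L and 42.1 for slc35a3.1.L, and ratios scattered most among members with a mean under 40.

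Markers of tissues that form after gastrulation differed between the arrays as well. Of 11 such genes 9 had probe sets, 11 in number, and their summed signals were 3798, 9082 and 5476. Most of each sum came from 2 probe sets of the muscle actin gene actc1.L, which gave 939, 2361 and 1386 in one and 2671.5, 6311 and 3847 in the other. The muscle myosin gene myh4.L gave 16.0, 79.8 and 53.5, and the blood gene hba3.L gave 19.0, 77.9 and 43.5. Both were called higher in both arrays. The list did not move one way, as the neuronal elavl4.L gave 47.1, 19.5 and 22.5 and was called lower in both arrays, and the muscle genes acta1.S (40.6, 46.2 and 28.0) and tnni3.L (14.1, 30.9 and 2.50) were below control in DN-KATP, without a call. Calls among these 11 probe sets were 5 higher and 1 lower in GlyR+IVM, where all probe sets gave 3.41% and 2.02%, and 2 higher and 1 lower in DN-KATP, where all probe sets gave 3.88% and 1.83%, while 3 of the 9 genes stayed under 40 in all arrays. The brighter actc1.L probe set and those of myh4.L, hba3.L, the muscle gene mylpf.L and elavl4.L are of kinds that can cross-hybridize. The part of these later tissue transcripts in the slc25a4.L values was not tested. Gastrula markers had probe sets for 13 of 21 genes, 24 in number. Of these 22 were at 40 or more in all arrays, at least 1 for each of the 13 genes. The summed signals of the 24 were 50319, 50961 and 52071. Single genes went both ways within that sum, with 4405, 6567 and 8011 for ventx2.1.L and 7556, 5690.4 and 4708 for tbxt.L. Among them 1 probe set was called, of cer1.S, lower in DN-KATP at 2796, 2654 and 1367. The other cer1.S probe set stayed under 40 at 7.40, 18.9 and 28.7, above control in both arrays.

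Carriers of sugars and the sodium symporters of family SLC5 had 24 probe sets, 15 of them with a mean of at least 40. Of these 15, 8 (53.3%) were above control in both depolarized arrays and 3 (20%) below in both. Among single-symbol probe sets the shares were 31.8% and 34.4%. Under the spike-in scaling 1 was above and 12 were below in both. slc2a9.S, a facilitative carrier of the GLUT family that moves urate, was called higher in GlyR+IVM only, at 2.48-fold. Its signals were 376, 932 and 456. The homeolog slc2a9.L did not share the difference in its brighter probe set, at 351, 374 and 244, and a dimmer one read 28.5, 48.3 and 41.4. slc2a1.L, the widely used glucose carrier GLUT1, gave 859.5, 1327 and 1057, a log2 ratio of 0.63 with GlyR+IVM and 0.30 with DN-KATP, short of a call. slc2a2.L, the low-affinity glucose carrier of liver and gut, gave 5692, 4784 and 5757.

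slc5a8.1.L gave nearly the same signal in both depolarized arrays, above that of control. It encodes a sodium-coupled carrier of lactate, pyruvate and other monocarboxylates. Its signals were 3979.8, 7003 and 6977, ratios of 0.82 and 0.81, both under the 2-fold line. Under the spike-in scaling these shrink by the shifts given above and stay above zero. slc45a2.L, known from melanocytes, went the other way in both arrays, at 155, 101 and 89.9, with ratios of -0.62 and -0.78. Of the sugar efflux and endoplasmic reticulum carriers, slc50a1.L gave 251, 324 and 359. slc37a4.L, the glucose-6-phosphate carrier, gave 278, 359 and 308, and both were above control in both arrays.

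**Figure D2:**
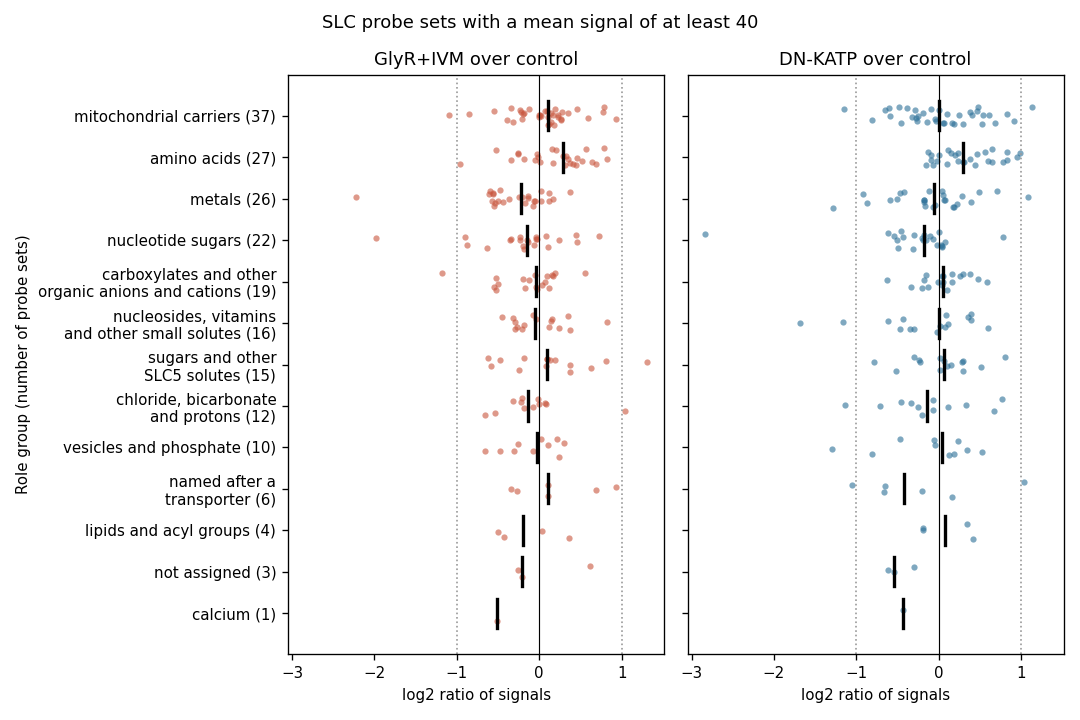
log2 ratios to control of the 198 SLC probe sets with a mean signal of at least 40, by role group, with GlyR+IVM on the left and DN-KATP on the right. Each point is 1 probe set with a small vertical offset for visibility, black bars are group medians and dotted lines mark 2-fold. The amino acid group has medians of 0.28 and 0.30. The group labelled nucleotide sugars, which is all of family SLC35, has -0.15 and -0.18.

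Carriers of amino acids and peptides lay above control more often than below it, as did the group of sugar carriers and SLC5. Of 27 probe sets with a mean of at least 40, 15 (55.6%) were above control in both depolarized arrays and 4 (14.8%) below in both, beside 31.8% and 34.4% of single-symbol probe sets. The 15 include both probe sets of slc7a5.L and both of slc38a2.L, so they are not 15 separate genes. The medians of the GlyR+IVM and DN-KATP ratios were 0.28 and 0.30, and 0.20 in both after quantile normalization, but -0.16 and -0.25 under the spike-in scaling, where all probe sets had medians of -0.44 and -0.51. That scaling also turned the balance, to 7 above and 18 below in both arrays, as it lowers all ratios alike. Relative to the median of all probe sets the group lay higher by 0.27 and 0.25 as deposited and by 0.21 and 0.20 after quantile normalization. No probe set of the 27 was called. The 1 call among all 44 of the group, of slc3a2.L, came from a probe set with a mean under 40. Single-symbol probe sets were called higher in 2.85% and lower in 1.99% with GlyR+IVM, and in 3.08% and 1.85% with DN-KATP. The control array is shared, and no test bears on the group.

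The sodium-coupled neutral amino acid carrier SNAT2, a gene that amino acid starvation induces in mammalian cells, is encoded by slc38a2. The brighter slc38a2.L probe set read 2365, 4090.0 and 4198, ratios of 0.79 and 0.83. The dimmer one read 255, 293 and 347, above control in both arrays by less. slc38a5.S, of the same family, gave 29.3, 47.2 and 56.5 and the control lay under 40. slc36a4.L, a carrier of neutral amino acids, gave 46.5, 82.4 and 73.0. Peptide carriers lay on the same side, with 335, 498 and 597 for slc15a2.L. slc15a4.L read 476, 632 and 702, while its second probe set stayed under 40 at 23.3, 15.2 and 14.5. In slc38a2.L, slc36a4.L and slc15a2.L the depolarized arrays were both above control in every probe set with a mean of at least 40, and none was called.

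Heteromeric amino acid carriers pair a heavy chain, slc3a2 or slc3a1, with a light chain of family SLC7. slc3a2.L was called lower in GlyR+IVM from a dim probe set, 46.0, 18.2 and 27.3. A second slc3a2.L probe set read 13.2, 31.3 and 24.7, the opposite direction and under 40 throughout. The brighter slc3a2.S gave 340.2, 383 and 516, above control in both arrays, so the call for the heavy chain rests on 1 of 3 probe sets. The light chain slc7a5.L, or LAT1, an exchanger of large neutral amino acids, gave 347, 449 and 409.5 in one probe set. In the other it gave 572, 635 and 672, and both were above control in both arrays. slc7a5.S stayed under 40 at 21.3, 28.7 and 19.1. slc7a8.S, the related LAT2, reached 247, 386 and 491, while slc7a8.L gave 874, 841 and 1003. For slc7a7.L, a light chain that exchanges cationic for neutral amino acids, 2 probe sets disagreed. One read 338, 174 and 362, lowest in GlyR+IVM, and the other 211, 303 and 331, lowest in control. slc7a3.L, a cationic amino acid carrier of family SLC7 that acts without a heavy chain, was level at 1934, 1899.6 and 1932.

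Other carriers of the group belong to families SLC6 and SLC1. slc6a14.2.L, a broad sodium- and chloride-coupled amino acid carrier, read 3651, 4666 and 4062. slc1a5.S, the glutamine exchanger ASCT2, read 1952, 1635 and 1754, slightly below control, and a dimmer slc1a5.L probe set read 85.2, 117 and 146. Another slc1a5.L probe set read 143, 126 and 198, on both sides of control, and the last stayed under 40 at 5.19, 3.30 and 2.77. The glial glutamate carrier slc1a3.L stayed under 40 at 6.90, 27.9 and 4.11.

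Family SLC35 holds nucleotide sugar carriers, which supply sugars for glycosylation in the Golgi and endoplasmic reticulum. It also holds relatives with other cargo, such as slc35b3, and the counts here are of the whole family. All 22 probe sets, of 16 gene symbols, had a mean of at least 40. Below control in both arrays were 13 (59.1%) and above in both 3 (13.6%), beside 34.4% and 31.8% of single-symbol probe sets. The 13 include every probe set of slc35b1 and slc35b3, so they are not 13 separate genes. The medians were -0.15 and -0.18, and after quantile normalization they were -0.13 and -0.27. The spike-in scaling lowers all ratios alike, here to medians of -0.59 and -0.73.

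Apart from slc35a3.1.L, differences in the family stayed under 2-fold. Its relative slc35a3.2.L gave 163, 87.1 and 151 and the homeolog slc35a3.2.S gave 1378, 1345 and 978, so the lower of the depolarized signals was in GlyR+IVM for one and in DN-KATP for the other. slc35b1, a carrier of the endoplasmic reticulum, was below control in DN-KATP in all 3 probe sets. One read 2562, 2516 and 1675, another 1788, 1566 and 1259, and the last 411, 348 and 305. slc35b3, which moves the sulfate donor PAPS, gave 451, 357 and 308 in one probe set and 113, 88.4 and 97.6 in another. slc35a1.L, the CMP-sialic acid carrier, gave 123, 67.1 and 126, low in the GlyR+IVM array alone. The 5 probe sets of the UDP-galactose carrier slc35a2 lay between -0.63 and 0.09 in their ratios. slc35f2.L lay apart, above control in both arrays at 1161, 1925 and 1992.

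**Figure D3:**
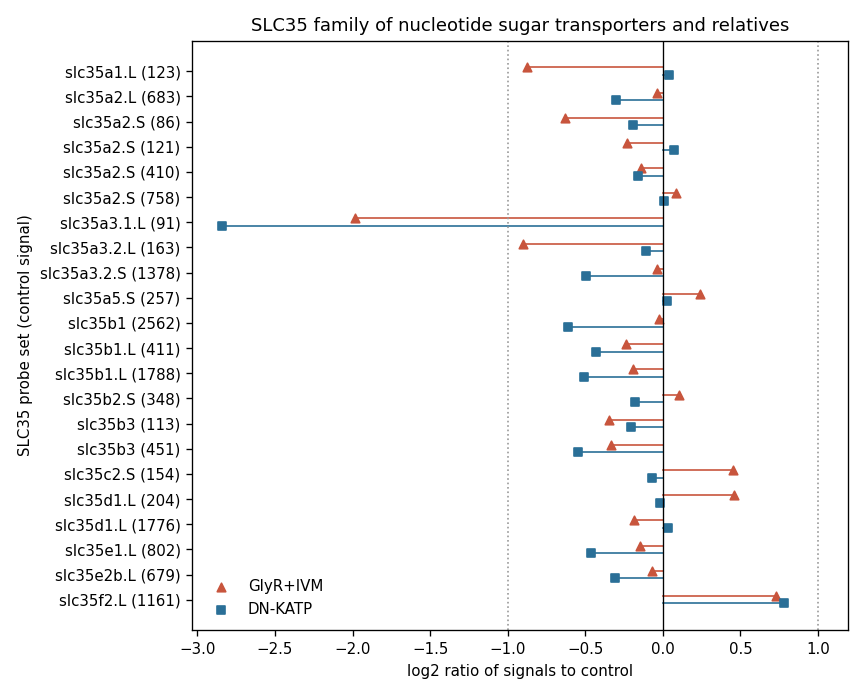
log2 ratios to control of the 22 SLC35 probe sets, in alphabetical order with the control signal in brackets, triangles for GlyR+IVM and squares for DN-KATP, 1 array each. In each array 16 of 22 probe sets lie below zero, and 13 lie below zero in both. slc35a3.1.L lies past -1 (dotted) and slc35f2.L lies at 0.73 and 0.78.

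Mitochondrial carriers, family SLC25, were the largest family with 46 probe sets, 37 of them at a mean of at least 40. They lay on both sides of control, with 15 (40.5%) above and 11 (29.7%) below in both arrays, beside 31.8% and 34.4% of single-symbol probe sets. The medians were 0.11 and -0.0020, and under the spike-in scaling they were -0.34 and -0.55. Besides slc25a4.L, 2 carriers were called from the GlyR+IVM array and 2 from the DN-KATP array. With slc25a4.L counted, 2 of the 46 were called higher and 1 lower in each array. All probe sets gave 3.41% and 2.02% in GlyR+IVM, and 3.88% and 1.83% in DN-KATP. slc25a26.L, which imports the methyl donor S-adenosylmethionine, was called lower in GlyR+IVM, with 802, 376 and 583. slc25a32.L, which serves folate and flavin supply, was called lower in DN-KATP, with 96.1, 65.5 and 43.4, and its other probe set gave 3.45, 2.70 and 2.18. slc25a46.L, a protein of the outer membrane that acts in mitochondrial shape, was called higher in DN-KATP, with 29.0, 49.8 and 63.8, while its homeolog slc25a46.S read 182, 204 and 279.6, above control by less. slc25a28.L, mitoferrin 2, an iron importer, was called higher in GlyR+IVM from 26.5, 68.4 and 8.60, and its other probe set read 575, 621 and 654. The homeolog slc25a28.S gave 147, 168 and 181 in one probe set and 450.2, 249.5 and 296 in the other, on opposite sides of control.

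The ADP/ATP translocase slc25a5.L lay near control in all of its 3 probe sets. One gave 25329, 30479 and 27200.0, another 24894, 29081 and 25821, and the last 24425, 26921 and 27212. This is the widespread form of the protein of which slc25a4 is the muscle form. The phosphate carrier slc25a3.L read 5059, 5709 and 4165 in one probe set and 275, 238 and 269.6 in another. Its last probe set stayed under 40 at 34.4, 26.4 and 34.5. Among carriers above control without a call, slc25a22l.S, related to a glutamate carrier, gave 449, 856 and 722. slc25a29.L, a carrier of basic amino acids, gave 434, 751 and 596. slc25a24.L, which exchanges ATP-magnesium for phosphate, gave 632, 953 and 1191. For slc25a24 the homeolog slc25a24.S lay on the same side, at 505, 532 and 659.7.

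Metal carriers had 26 probe sets with a mean of at least 40. In GlyR+IVM 20 of these were below control and 6 above, with a median of -0.22, and in DN-KATP 14 were below and 12 above, with a median of -0.05. Below control in both arrays were 12 (46.2%) and above in both 4 (15.4%), beside 34.4% and 31.8% of single-symbol probe sets. Under the spike-in scaling the medians were -0.67 and -0.60, with 24 below and 0 above in both. slc31a1.S, the high-affinity copper importer CTR1, was called lower in DN-KATP, with 435, 285 and 179.6. Its homeolog slc31a1.L gave 648, 837 and 343, low in the same array and short of a call, and the copies differed in GlyR+IVM, where one was below control and the other above. slc40a1.S, ferroportin, which exports iron, read 39.1, 8.35 and 82.6. It was called higher in DN-KATP. In GlyR+IVM it was 4.68-fold below a control just under 40, and therefore not called.

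Zinc carriers of families SLC30 (15 probe sets) and SLC39 (5) showed no called member. Of all probe sets 3.41% were called higher and 2.02% lower in GlyR+IVM, and 3.88% and 1.83% in DN-KATP. slc30a8.L, known from insulin granules, gave 4251, 2884 and 6956, below control in one depolarized array and above in the other. slc30a5.L, of the secretory pathway, read 808, 572 and 568. slc39a7.L, which releases zinc from the endoplasmic reticulum, read 3649, 2836 and 2627, and both were below control in both arrays. Of the exporter at the cell surface, slc30a1.L read 1458, 1403 and 2050.1 and slc30a1.S read 3399, 3260.3 and 3971. slc48a1.S, a heme carrier, gave 65.5, 44.8 and 35.7 and its homeolog slc48a1.L 190.5, 161 and 168, both below control.

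Carriers of chloride, bicarbonate and protons set, with the pumps, the ion content and pH of the cytosol. Of 17 probe sets 12 had a mean of at least 40, with medians of -0.13 and -0.14. Above control in both arrays was 1 (8.3%) and below in both were 5 (41.7%), beside 31.8% and 34.4% of single-symbol probe sets. slc26a6, an exchanger of chloride for oxalate and bicarbonate, was called lower in DN-KATP alone, with 385, 406 and 175. slc26a4l.L, related to the anion exchanger pendrin, was called higher in GlyR+IVM, with 40.03, 82.3 and 63.8, close above the floor, and its ratio fell to 0.93 after quantile normalization. The pendrin-related slc26a4.1.L read 46.4, 48.8 and 44.1, and slc26a4.3.S read 35.6, 30.9 and 60.4. slc26a4.3.L stayed under 40 at 12.1, 7.91 and 14.5. slc12a2.L, the cotransporter NKCC1 that loads cells with chloride, read 234, 148 and 224, a ratio of -0.66 in GlyR+IVM. Of the potassium-chloride cotransporters, slc12a4.L read 327, 281 and 354, and slc12a5.L read 24.8, 44.4 and 22.7. The sodium-bicarbonate cotransporter slc4a7.L gave 424, 401 and 309. None of the 5 SLC12 probe sets was called in either array. Of all probe sets 3.41% were called higher and 2.02% lower in GlyR+IVM, and 3.88% and 1.83% in DN-KATP.

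Scaffold proteins named after a transporter, which are no transporters themselves, fall under the naming rule. slc9a3r1 and slc9a3r2, or NHERF1 and NHERF2, tie carriers and channels to the actin cortex. slc9a3r1.S was called lower in DN-KATP, with 1581, 1249 and 760.0, and slc9a3r1.L read 1808, 1499.9 and 1144, lower by less. One probe set of slc9a3r2.S was called higher there, with 50.8, 96.7 and 104, and the other read 47.4, 76.3 and 53.0. The sodium-calcium exchangers of family SLC8 gave little signal, with 5 of 6 probe sets under 40 in all arrays. slc8a1.S read 13.8, 23.4 and 4.34, and one probe set of slc8b1.S, the mitochondrial exchanger, read 87.6, 61.4 and 65.0.

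Carriers of monocarboxylates and organic ions had 27 probe sets, 19 at a mean of at least 40. Of these 8 (42.1%) were above control in both arrays and 7 (36.8%) below in both, beside 31.8% and 34.4% of single-symbol probe sets. slc22a5.L, the sodium-coupled carnitine carrier OCTN2, was called lower in GlyR+IVM. Its signals were 2708, 1194 and 2775, 2.27-fold lower in GlyR+IVM and level in DN-KATP. A second probe set read 1044, 726 and 911, on the same side and by less. slc22a4.L, its relative, read 13736, 14445 and 14678 and slc22a16.L stayed under 40 at 12.2, 3.44 and 1.78. Among proton-coupled lactate carriers, slc16a3.L, or MCT4, lay near control at 21455, 20802 and 18938. Its dimmer homeolog slc16a3.S read 368, 252 and 336, a ratio of -0.55 in GlyR+IVM. slc16a1.L, or MCT1, read 790.0, 844 and 818. Both probe sets of slc16a1.S were below control in GlyR+IVM, one at 1320.5, 918 and 1481, the other at 1064, 754 and 1106. The chaperone of these lactate carriers, basigin, read 9092, 8590 and 8131 for bsg.L and 8040, 6322 and 9621.5 for bsg.S.

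Of 19 probe sets of nucleoside and vitamin carriers 2 were called lower in DN-KATP, beside 1.83% of all probe sets. slc29a1.L, the equilibrative nucleoside carrier ENT1, read 114, 145 and 35.4, so that DN-KATP was 3.23-fold below control and GlyR+IVM above it. Its homeolog slc29a1.S, with 50.5, 36.2 and 28.5, was also lowest in DN-KATP but fell under 40 in both depolarized arrays. slc19a2.S, a thiamine carrier, was called lower from 370.2, 361 and 166, whereas a second probe set gave 79.6, 103 and 105. slc44a2.L, of the choline carrier-like family, read 3566, 3960.2 and 4571. slc46a1.L, a proton-coupled folate carrier, read 61.2, 108 and 92.3, above control in both arrays. slc52a1.L, a riboflavin carrier, read 524, 382 and 343, below control in both.

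Vesicular and phosphate carriers had 10 probe sets with a mean of at least 40. slc18a2.L, the vesicular monoamine carrier VMAT2, was called lower in DN-KATP, with 137, 130.0 and 55.7, and was near control in GlyR+IVM. slc17a9.L, the vesicular nucleotide carrier, read 1389.5, 1408 and 1003 in one probe set and 68.8, 49.3 and 39.3 in another. Of the phosphate importer, slc20a1.L read 1047, 1241 and 1502 and slc20a1.S read 822, 957 and 1041, both above control in both arrays. Of the lipid group, slc27a3.L, related to fatty acid carriers, read 2542, 1796 and 2222. Of family SLC66, kept as a group of its own, slc66a2.1.L read 765, 640 and 526. Probe sets of slc4a4, slc6a4, slc39a6 and slc39a10 were not analysed here.

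Proteins that work with carriers were looked at from a list of 22 genes, of which 13 had probe sets, 23 in number. In GlyR+IVM 1 was called higher and 0 lower, and in DN-KATP 2 were higher and 1 lower, beside 3.41%, 2.02%, 3.88% and 1.83% of all probe sets. They were subunits of the sodium pump, which sets the sodium gradient for many carriers. atp1b3.S read 19.3, 49.4 and 49.0 in its dim probe set and 10270, 15154 and 13861 in a bright one. atp1b2.L read 1454, 1061 and 628, called lower in DN-KATP, and its homeolog atp1b2.S read 20.5, 18.9 and 42.7, called higher there. sgk1.L, a kinase that regulates many carriers, read 1755, 2651 and 2171, below a 2-fold difference.

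Genes with several probe sets show how far 2 measurements of the same RNA pools can differ. There were 77 pairs of probe sets of 48 genes, with a mean signal of at least 40 in each probe set. A gene with many probe sets, such as slc35a2, enters with several overlapping pairs, so the 77 are not independent of each other. In GlyR+IVM 41 of the 77 pairs had ratios of the same sign, and in DN-KATP 53. Among 39 pairs within 1 gene symbol the same sign was found in 20 and 25, and among 38 pairs with different symbols in 21 and 28. The latter are .L and .S copies, except for pairs of slc25a1-b with slc25a1.L and of slc35b1 with slc35b1.L. The ratios of a pair differed by a median of 0.32 (GlyR+IVM) or 0.23 (DN-KATP). Pairs that differed by 1 or more numbered 3 for GlyR+IVM and 2 for DN-KATP. They were those of slc7a7.L, slc25a28 and slc2a9 in GlyR+IVM and of slc19a2.S and slc25a13.L in DN-KATP, where slc25a13.L, a mitochondrial aspartate-glutamate carrier, read 246, 267 and 438 in one probe set and 1600.1, 1591 and 1335 in the other.

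**Figure D4:**
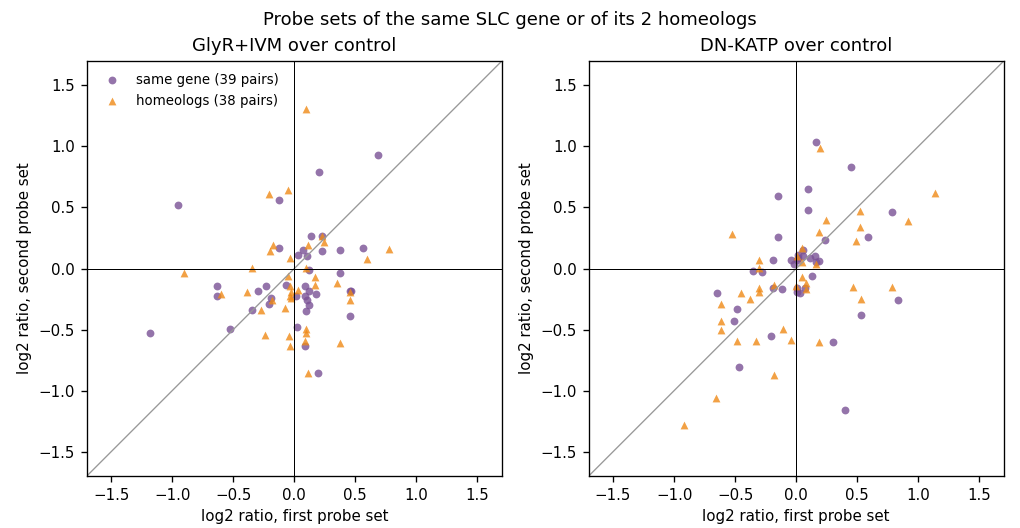
log2 ratios to control of 77 pairs of SLC probe sets, the first of each pair on the horizontal and the second on the vertical axis, for GlyR+IVM (left) and DN-KATP (right). Circles are 39 pairs of the same gene symbol, triangles 38 pairs with different symbols, mostly .L and .S copies, and the diagonal marks equal ratios. Points at the lower left and upper right agree in sign, 41 of 77 in GlyR+IVM and 53 of 77 with DN-KATP.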

How the data were processed

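RNA of water-injected, GlyR+IVM and DN-KATP stage 11 embryos was measured on 3 Affymetrix microarrays of the *X. laevis* Genome 2.0 design, each condition on its own array. The deposited intensity values are MAS5 signals on a linear scale, which the authors had computed and scaled array by array, without present or absent calls. The software version and scaling target are not given in the sources used here. The signals were used as deposited, with the 96 control probe sets left out, and processed in Python 3.11 with pandas 2.3.3 and numpy 2.4.6. A call needed a 2-fold difference and a signal of at least 40 on the higher side, where the study's methods use a present call. The number of arrays limits the precision, and it allows no test.

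Gene symbols came from the platform annotation. Of the 265 members 262 had an Entrez ID in the RefSeq gene table of *Xenopus laevis*, all with the same symbol, and 3 were not in it. A further 3 probe sets that carry several symbols, an SLC symbol among them, were left out. Each family number was put in 1 role group, and family SLC66 was moved to a group of its own after values had been seen. The members and all lists were chosen with earlier results of these data known. Named were the members called in both arrays, among members with a mean signal of at least 40 the 8 that lay farthest above control in both arrays and the 8 that lay farthest below, the probe set with the highest mean signal in each role group, and a list of well-known carriers. The other called members, and further carriers that complete a role group, were named after their values were seen. The calling step was tested on simulated data, with changes well over 2-fold planted in bright probe sets only. That test does not cover calls near 2-fold or from low signals. Alternatives were the signal floor, the fold, quantile normalization, scaling to spike-ins, 32 added to signals, omission of cross-hybridizing probe sets, and 1 value a gene symbol.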

Additional observations from a re-analysis of the deposited data

Results flagged for a closer look

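In 2 members the depolarized arrays lay at least 2-fold from control on opposite sides, with at least 40 in an array. The difference was not tested, as each condition has 1 array and both ratios share the control. For slc25a28.L, mitoferrin 2, the control signal was 26.5, the GlyR+IVM signal 68.4 and the DN-KATP signal 8.60, and the log2 ratio of DN-KATP over GlyR+IVM was -2.99. Another slc25a28.L probe set read 575, 621 and 654. For slc40a1.S, ferroportin, the signals in the same order were 39.1, 8.35 and 82.6, and the same log2 ratio was 3.31. No other slc40a1 probe set is among the members. In both genes the control signal and that of a depolarized array were under 40, below the floor of a call, so these ratios rest on low signals. The mean over the arrays was 34.5 for slc25a28.L and 43.3 for slc40a1.S. Members with a mean under 40 had standard deviations of the log2 ratios of 1.45 and 1.65.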

How the results depend on the processing

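The number of calls depended on the rule, and the medians on the spike-in scaling. With no signal floor 21 members were higher and 15 lower in GlyR+IVM, 22 higher and 19 lower in DN-KATP, and 12 higher and 7 lower in both. With a floor of 100 the numbers were 1 and 2 (GlyR+IVM), 1 and 6 (DN-KATP), and 0 and 0 (both). With a 1.5-fold threshold they were 21 and 16, 23 and 27, and 13 and 6. Quantile normalization left 0 higher in DN-KATP and 0 higher in both. Scaling to 9 hybridization spike-in probe sets, which moved the median of all probe sets to -0.44 and -0.51, left 0 higher in either array or in both, with 19 lower in GlyR+IVM, 39 in DN-KATP and 7 in both, and member medians of -0.47 and -0.55. With 32 added to every signal 1 was higher in GlyR+IVM, 0 in DN-KATP and 0 in both. With 1 value a gene symbol 2 were higher in both and 3 lower in GlyR+IVM. Omitting cross-hybridizing probe sets kept every count within 1.5 times. The cause was not tested. Of the 22 member calls, counted per array, 12 were lost with a floor of 100 and 10 with 32 added. The spike-in scaling lost 8 and quantile normalization 5. None changed its direction under quantile normalization. The other alternatives run per probe set could not turn the direction of a call, so its constancy there carries no information. No paired analysis was possible because each condition has 1 array. Low signals limit the depth, as 67 of the 265 members had a mean under 40.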
